A study of Mus musculus with 2 samples.

Results

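HIRA chaperones H3.3, a histone variant, and deposits it independently of DNA replication. HIRA peaks at gene promoters were defined as peaks whose midpoint lay within 1 kb of any transcript start of GENCODE M21. Peaks holding an exact 8-base run of 4 GA or 4 CA dinucleotides on either strand were left out. Of the 6624 HIRA peaks in the list, 499 lay at a promoter, 128 of these held such a repeat, and 371 were kept. The peaks came from 1 ChIP-seq library of 30 pooled wild type CD1 mouse hearts at E12.5, immunoprecipitated with the WC15 antibody against HIRA and called against 1 input library of the same pool. The hearts came from 2 plugged mice and no mutant heart entered this experiment. The pool holds all cell types of the embryonic heart, so a peak cannot be assigned to one of them. There were no replicates and the list gave positions without heights, so each peak counted once, and the reads were not analysed here. Intervals on shares and densities therefore cover counting error only, and p-values compare peaks of this list rather than hearts or immunoprecipitations.

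A promoter is the stretch of DNA around the site where transcription starts. Many mouse promoters lie in CpG islands, which are stretches rich in G, C and the dinucleotide CpG and are mostly free of DNA methylation. Other promoters are poor in CpG and are more often used in particular tissues. H3.3 is known to mark the nucleosomes around active starts and, in a separate pathway that uses other chaperones, silent repeats such as those at telomeres and pericentromeric satellites. A part of the genome is repeated, and a short read from a repeat can align to several places. For this reason the copy number of the sequence under each promoter peak was measured beside its base composition.

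The promoter peaks fell into kinds of sequence that differ on sight, and 9 examples are shown, read from the plus strand of the mm10 assembly, 5′ to 3′, with each CpG in capitals. The first 4 lay at genes with a role in heart development, the next 2 were rich in CpG, 1 lay near a divergent gene pair, and the last 2 belonged to a block of satellite-like repeats. At Myocd the peak was chr11:65205329-65205578, at Smyd1 chr6:71262664-71262837, at Tead1 chr7:112742689-112742940 and at Smad6 chr9:64016773-64016941. The CpG-rich peak near Mir7654 was chr8:8689669-8689864 and the one at Gm25911 was chr1:167340255-167340506. The peak near Wdr62 and Thap8 was chr7:30279817-30280015. The satellite-like peak at Gm10718 was chr9:3023481-3023692 and the one at Gm10717 was chr9:3032113-3032288.
Myocd: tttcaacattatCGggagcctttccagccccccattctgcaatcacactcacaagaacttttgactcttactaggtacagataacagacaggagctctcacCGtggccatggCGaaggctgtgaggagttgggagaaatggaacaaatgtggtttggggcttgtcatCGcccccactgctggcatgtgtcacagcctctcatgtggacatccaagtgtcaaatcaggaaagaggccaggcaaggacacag
Smyd1: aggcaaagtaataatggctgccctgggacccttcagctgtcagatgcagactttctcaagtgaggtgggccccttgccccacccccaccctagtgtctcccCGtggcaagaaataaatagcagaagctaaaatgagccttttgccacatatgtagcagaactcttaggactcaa
Tead1: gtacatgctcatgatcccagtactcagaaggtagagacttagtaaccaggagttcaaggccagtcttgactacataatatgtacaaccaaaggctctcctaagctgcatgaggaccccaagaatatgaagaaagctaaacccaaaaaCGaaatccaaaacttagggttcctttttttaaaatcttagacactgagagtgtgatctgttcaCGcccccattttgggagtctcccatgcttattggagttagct
Smad6: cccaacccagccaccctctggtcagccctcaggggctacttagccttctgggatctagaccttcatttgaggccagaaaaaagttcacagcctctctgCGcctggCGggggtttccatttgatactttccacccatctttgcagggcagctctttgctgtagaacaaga
Mir7654: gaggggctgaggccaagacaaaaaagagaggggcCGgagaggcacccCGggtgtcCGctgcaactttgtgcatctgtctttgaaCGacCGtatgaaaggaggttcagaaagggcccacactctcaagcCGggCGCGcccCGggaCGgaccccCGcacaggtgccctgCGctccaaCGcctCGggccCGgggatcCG
Gm25911: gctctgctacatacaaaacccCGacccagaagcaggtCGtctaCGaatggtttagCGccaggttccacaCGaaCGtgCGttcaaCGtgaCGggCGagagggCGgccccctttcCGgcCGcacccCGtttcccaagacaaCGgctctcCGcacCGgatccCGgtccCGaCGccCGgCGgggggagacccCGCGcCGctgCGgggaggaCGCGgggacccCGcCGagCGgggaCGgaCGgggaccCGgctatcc
Wdr62/Thap8: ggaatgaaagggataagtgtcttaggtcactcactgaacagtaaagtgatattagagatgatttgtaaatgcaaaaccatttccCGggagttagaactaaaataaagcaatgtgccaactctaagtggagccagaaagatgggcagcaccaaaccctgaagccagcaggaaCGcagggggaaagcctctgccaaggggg
Gm10718: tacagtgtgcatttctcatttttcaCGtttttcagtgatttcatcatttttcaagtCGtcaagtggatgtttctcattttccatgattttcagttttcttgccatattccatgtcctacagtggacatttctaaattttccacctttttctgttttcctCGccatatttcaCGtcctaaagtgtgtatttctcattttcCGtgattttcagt
Gm10717: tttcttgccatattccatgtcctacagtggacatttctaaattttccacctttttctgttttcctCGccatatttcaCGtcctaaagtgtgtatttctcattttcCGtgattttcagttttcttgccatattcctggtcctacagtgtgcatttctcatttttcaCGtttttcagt
The Myocd peak held 4 CpG in 250 bases and the Gm25911 peak 34 in 252 bases. The Gm10718 and Gm10717 peaks had a GC content of 34.9% and 36.9% and visibly shared long stretches of sequence.

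The 371 promoter peaks were short. Their median width was 186 bases, with quartiles of 169 and 221 and a range of 158 to 856 bases. Their midpoints lay at a median of 407 bases from the nearest transcript start (95% confidence interval 351 to 463), and 63 peaks (17.0%) covered the start itself. Upstream of the nearest start lay 190 peaks, or 51.2% (46.1 to 56.3), and downstream lay 181. Of the bases within 1 kb of a start, 49.2% were upstream, a share that lies inside this interval. Within 100 bases of a start lay 56 peaks (15.1%), against 12.6% of the bases. The window was fixed at 1 kb, and the peaks nearest to its edge were at 996 bases (Rps6ka2) and 998 bases (AC161438.1 and Gm17775) inside it and at 1003 bases (Fam107b), 1004 bases (Ppp4r1) and 1008 bases (Olfr418) outside it.

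Counted per length of promoter window, the peaks reached 2.31 per Mb (2.09 to 2.56), over 160 Mb of sequence within 1 kb of a start. The other 4487 repeat-free peaks of the list reached 1.80 per Mb (1.75 to 1.86) over the rest of the genome. Within the window the density was uneven, but without a sharp summit at the start. It was 2.95 per Mb (2.28 to 3.74) in the 250 bases just upstream of a start and 2.31 (1.73 to 3.01) in the 250 bases just downstream. The highest value, 3.04 (2.28 to 3.97), came from the outermost bin, 750 to 1000 bases upstream, with 54 peaks. Of these 54, 30 shared no 32-base word with another promoter peak, and the density of such peaks in that bin was 1.69 (1.14 to 2.41). For these non-sharing peaks the bin just upstream of the start was the highest, at 1.98 (1.44 to 2.65).

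**Figure D1:**
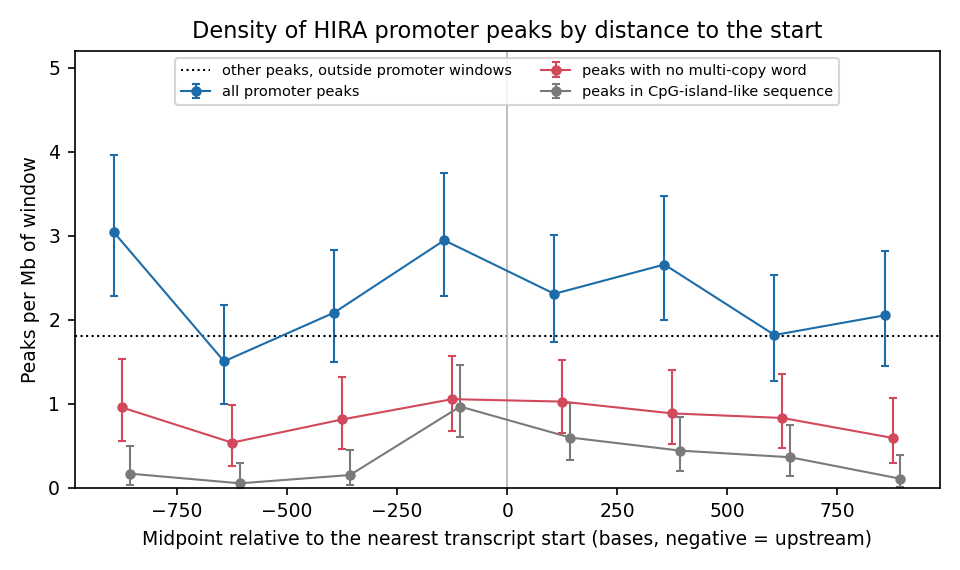
Density of HIRA promoter peaks, in peaks per Mb of window, in 8 bins of 250 bases by position relative to the nearest transcript start (negative values are upstream). Points are counts divided by window length, bars are exact 95% Poisson intervals, and the dotted line is the density of other repeat-free peaks outside promoter windows (1.80 per Mb). Peaks in CpG-island-like sequence are densest within 250 bases of the start, while the intervals of all peaks overlap across most bins. Their counts are divided by all window length in a bin, not by its CpG-island-like sequence. No preference for the start within such sequence can therefore be read.

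Base composition set the promoter peaks apart from the rest of the list. Their median GC content was 49.7% (49.1 to 50.7), against 45.5% (45.1 to 46.0) for the other repeat-free peaks. A GC content of at least 50% was found in 182 of 371 promoter peaks (49.1%) and in 1127 of 4487 other peaks (25.1%), a difference of 23.9 percentage points (two-sided Fisher's exact test, adjusted p = 1.07e-20). To ask how far promoters in general share this composition, all sequence within 1 kb of a start was cut into 752421 repeat-free tiles of 185 bases. The tiles had a median GC content of 45.9%, and 33.9% of them reached 50%, so the promoter peaks were richer in GC than the promoter sequence they came from. Among peaks with no sequence that recurs in the genome, 87 of 136 peaks (63.97%, 55.6 to 71.6) reached 50% GC, against 38.5% of the single-copy tiles.

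**Figure D2:**
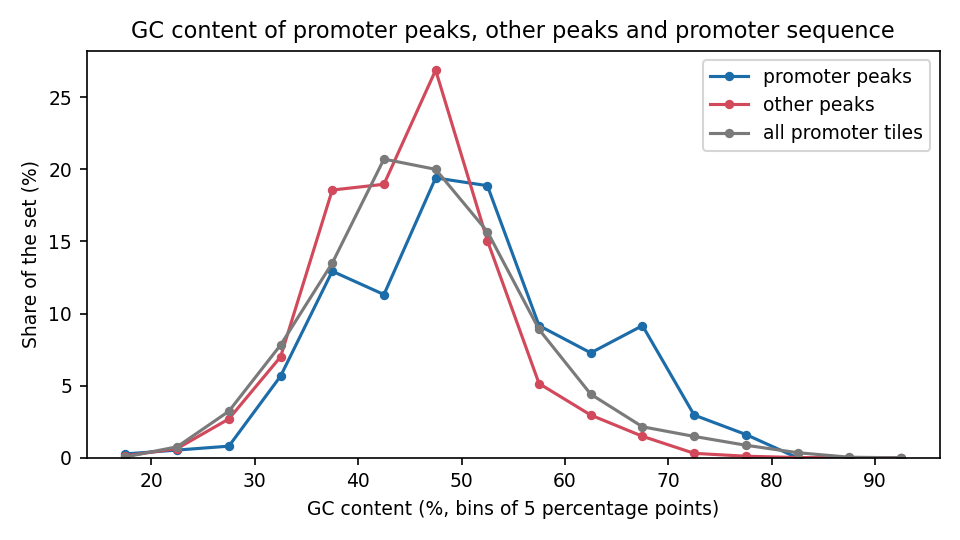
GC content of the 371 promoter peaks, the 4487 other repeat-free peaks and the 752421 promoter tiles, as the share of each set (%) in bins of 5 percentage points. The promoter peaks have a shoulder between 65 and 70% GC, which holds 9.16% of them against 1.49% of the other peaks and 2.15% of the tiles.

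CpG islands were scored on the 500 bases around each midpoint, as a GC content of at least 50% and an observed over expected CpG ratio of at least 0.6. By this measure 61 of 371 promoter peaks (16.4%, 13.0 to 20.6) lay in CpG-island-like sequence, against 50 of 4487 other peaks (1.11%, 0.846 to 1.47). The difference of 15.3 percentage points had an adjusted p of 3.34e-39 (two-sided Fisher's exact test). Of the promoter tiles 8.39% were CpG-island-like. The density of promoter peaks was 5.22 per Mb (4.00 to 6.71) in CpG-island-like tiles and 2.43 per Mb (2.17 to 2.72) in the other tiles. Among single-copy peaks and tiles the same densities were 3.11 (2.14 to 4.36) and 1.16 (0.945 to 1.404). Most promoter peaks nevertheless lay outside such sequence, and 78 of them (21.02%) held no CpG at all.

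The 61 CpG-island-like peaks had a median GC content of 66.9% and a median of 8.15 CpG per 100 bases. A protein-coding gene had a start within 1 kb of 53 of them, and 36 had their midpoint within 250 bases of a start. Of the 61, 33 contained no multi-copy sequence and 11 lay in 1 run of related genes on chromosome 4 described further on. The peak with the most CpG per base was at Tead1, a TEA domain transcription factor of the Hippo pathway that is required in the embryonic myocardium. It lay 52 bases downstream of a start, in the 5′ part of the gene, with 40 CpG in 225 bases and a GC content of 77.8%. The other Tead1 peak, shown above, lay 770 bases downstream of a later start in an intron and had 2 CpG in 252 bases. Thus 1 gene carried both an island and a CpG-poor peak.

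Several other genes of the CpG-rich group encode regulators or enzymes. The Pdxp peak, at a phosphatase for pyridoxal phosphate, lay 316 bases downstream of the start with 30 CpG in 169 bases and the highest GC content of all, 79.3%. The Slco3a1 peak, at an organic anion transporter, lay 57 bases upstream of a start with 32 CpG in 212 bases. The Zmiz1 peak, at a transcriptional coactivator, lay 51 bases downstream with 25 CpG in 192 bases. The Ski peak, at a repressor of TGF-beta signalling, lay 720 bases upstream with 43 CpG in 336 bases. At Gabbr1, a subunit of the GABA-B receptor, the midpoint fell exactly on a start (distance 0), with 19 CpG in 163 bases. Foxe1, Irf2bp2, Man2a1, Ptgfrn and Strn also had a single-copy CpG-island-like peak and are named after their values were seen.

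**Figure D3:**
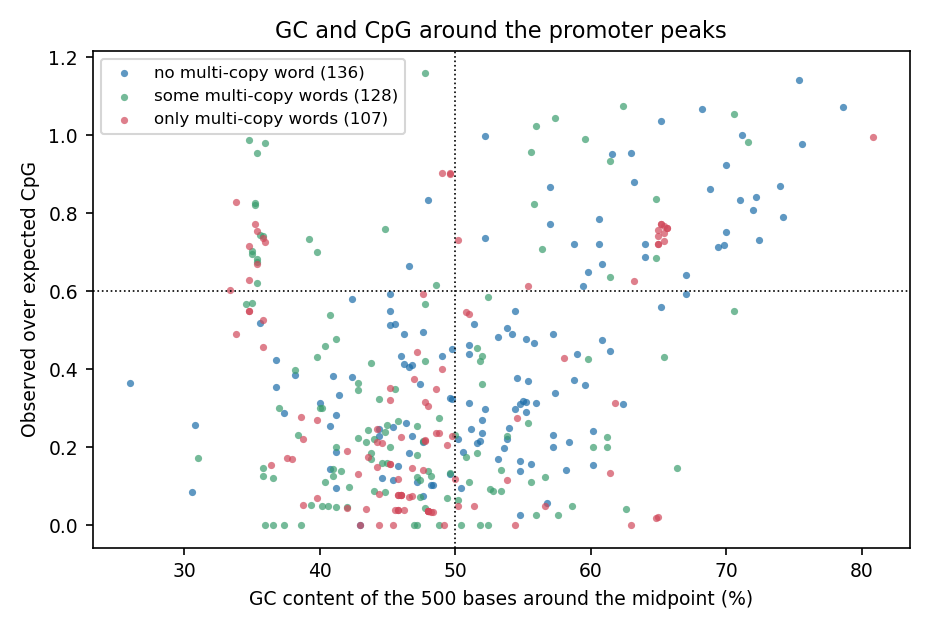
GC content (%, horizontal axis) and observed over expected CpG ratio (vertical axis) of the 500 bases around each of the 371 promoter peaks, coloured by how many of the 32-base words of the peak occur more than once in the genome. Dotted lines mark the island thresholds of 50% and 0.6, and the 61 peaks at or above both are the CpG-island-like ones. The tight group of only multi-copy peaks near 65% GC lies in the run of genes on chromosome 4, and the column near 35% GC is the block on chromosome 9.

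Repeated sequence was the other feature that divided the list. Lower-case bases of the assembly, called soft-masked, mark known repeats. At least 50% of the bases were soft-masked in 146 promoter peaks (39.4%) and in 3307 other peaks (73.7%), a difference (promoter minus other) of -34.3 percentage points (Fisher's exact test, adjusted p = 4.09e-39). Not a single masked base was found in 76 promoter peaks (20.5%) and in 418 other peaks (9.32%, adjusted p = 1.12e-09 by Fisher's exact test). This call was lost among peaks with no multi-copy word (6.56 percentage points, adjusted p = 0.207) and among peaks sharing no word with another (3.68 percentage points, adjusted p = 0.346), both by Fisher's exact test. Yet the promoter peaks were more masked than promoters in general, since 15.2% of the tiles were at least 50% masked and 36.9% had no masked base. Among peaks with no multi-copy word, 2.94% of promoter peaks and 3.07% of other peaks were at least 50% masked (adjusted p = 1.0, Fisher's exact test). A width of at least 250 bases was found in 69 promoter peaks (18.6%) and in 616 other peaks (13.7%, adjusted p = 0.0162 by Fisher's exact test), a difference that turned to -1.14 percentage points among peaks sharing no word with another and to -1.37 with RefSeq starts.

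A 32-base word was called multi-copy when it occurred more than once on either strand of the 21 chromosomes. At least 1 such word was present in 235 promoter peaks (63.3%, 58.3 to 68.1), in 3900 other peaks (86.9%) and in 28.4% of the tiles. The difference between promoter peaks and other peaks was -23.6 percentage points (Fisher's exact test, adjusted p = 1.01e-26). Only multi-copy words were present in 107 promoter peaks (28.8%), 1946 other peaks (43.4%, adjusted p = 6.66e-08 by Fisher's exact test) and 5.47% of the tiles. Among peaks sharing no word with another, the difference in this share was -4.91 percentage points (adjusted p = 0.0962, Fisher's exact test). Sequence was also shared within the set. Of the 371 promoter peaks, 147 (39.6%) had a 32-base word in common with another, and they formed 23 groups. Related peaks are not independent, and p-values over peaks are too small to that extent. Among the peaks that shared no word with any other peak of the list, 22.1% of 190 promoter peaks remained CpG-island-like.

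**Figure D4:**
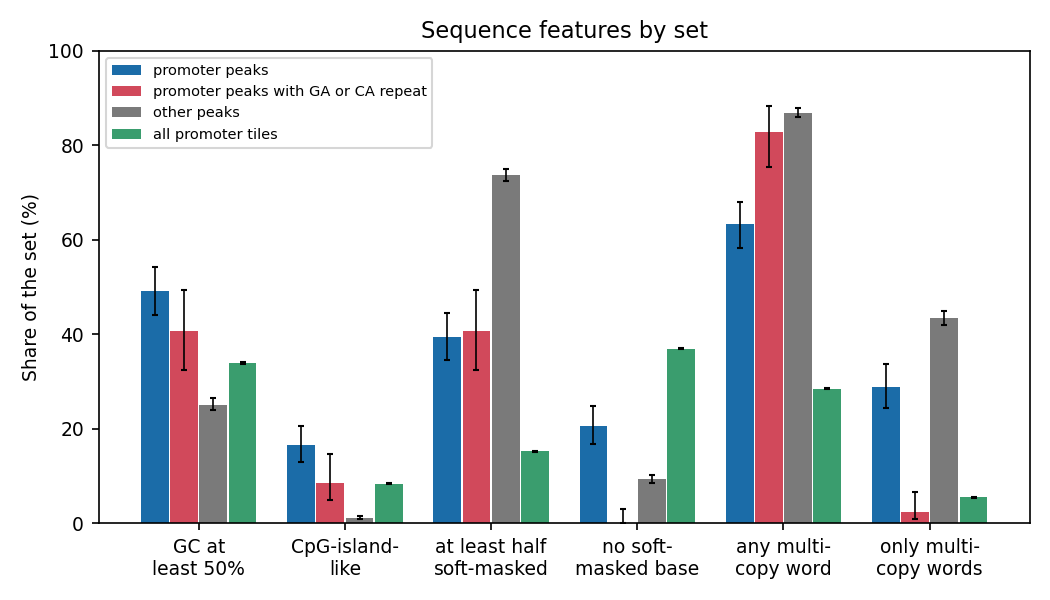
Share (%) of promoter peaks (371), promoter peaks with a GA or CA repeat (128), other repeat-free peaks (4487) and repeat-free promoter tiles (752421) with each of 6 sequence features. Bars start at 0 and error bars are 95% Wilson intervals. Promoter peaks are higher than other peaks in GC content and CpG-island-like sequence and lower in masked and multi-copy sequence, while they are more masked and more often multi-copy than the tiles.

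The 128 promoter peaks left out for a GA or CA repeat were compared with the 371 kept. The repeat itself adds to GC content, masking and word counts, so these are given as a description only. A GC content of at least 50% was found in 40.6% of the peaks with a repeat, at least 50% of the bases were masked in 40.6%, any multi-copy word was present in 82.8% and only multi-copy words in 2.34%. CpG-island-like sequence was found in 11 of the 128 (8.59%), against 16.4% of the 371 (difference 7.85 percentage points, two-sided Fisher's exact test, adjusted p = 0.0339). This call was lost in 6 of the other settings tried. A width of at least 250 bases was found in 4 of the 128 (3.13%) and in 69 of the 371 (18.6%, adjusted p = 6.07e-06 by Fisher's exact test). This call was also lost among peaks with no multi-copy word (11.8 percentage points, adjusted p = 0.207) and among peaks sharing no word with another (10 percentage points, adjusted p = 0.113), both by Fisher's exact test.

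A total of 391 of 55413 annotated genes (0.706%) had a start within 1 kb of a promoter peak, and 228 of these were among the 21938 protein-coding genes (1.04%). Most peaks, 334, had only 1 gene within 1 kb. Per gene, the share was 0.402% (0.296 to 0.547) for processed pseudogenes, 0.410% (0.276 to 0.609) for lincRNA genes, 0.642% (0.411 to 1.00) for antisense genes, 0.863% (0.553 to 1.34) for miRNA genes and 0.940% (0.550 to 1.60) for snRNA genes. Genes differ in how many starts they have, so the peaks were also counted per Mb of window of each type. On that scale the protein-coding windows held 2.42 per Mb (2.12 to 2.75) and the processed pseudogene windows 2.04 (1.46 to 2.77). The miRNA windows held 4.83 per Mb (2.91 to 7.54) and the snRNA windows 4.72 (2.51 to 8.07), but these rest on 19 and 13 peaks. Nor are the 19 miRNA peaks independent. The peaks at Gm25911, Gm24270, Gm24187 and Gm23935 formed 1 group through shared words, with at least 52.0% multi-copy words in each. The Mir101c peak lay in the repeat block on chromosome 9. Of the 13 snRNA peaks 9 held only multi-copy words, and of the 13 peaks at unprocessed pseudogenes 11 did, against 50 of 237 at protein-coding genes.

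**Figure D5:**
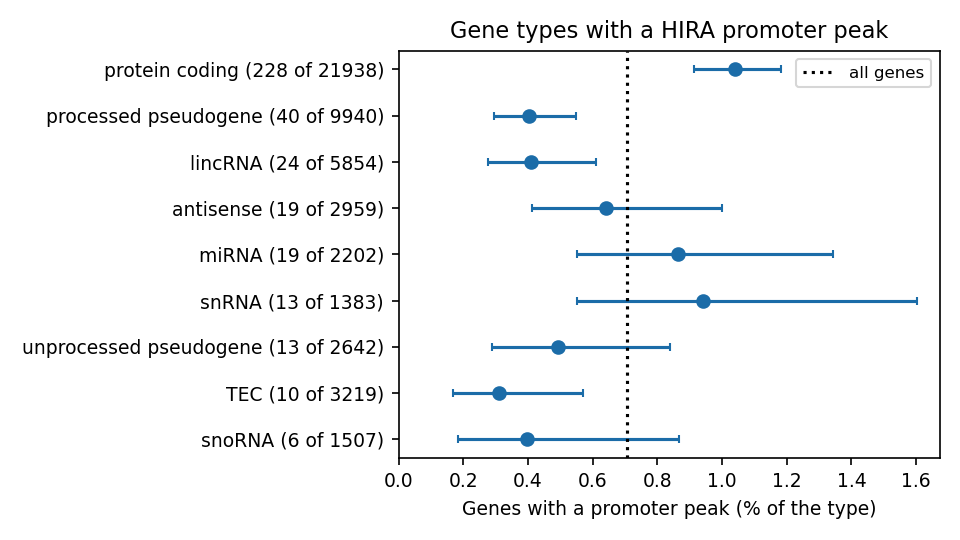
Share (%) of the genes of each GENCODE type with at least 1000 members that have a HIRA promoter peak, with the number of genes in brackets. Bars are 95% Wilson intervals and the dotted line is the share over all genes (0.706%). Protein-coding genes lie above it at 1.04%, and processed pseudogenes, lincRNA and TEC (unclassified transcript) genes lie below it.

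For 229 peaks the nearest start belonged to a protein-coding gene. For 82 of them (35.8%) this was the first start of the gene, meaning the 5′-most one annotated, and for 147 (64.2%) it was a later start. The first start lay within 1 kb of the midpoint for 120 peaks (52.4%, 45.9 to 58.8), and for the other 109 it was a median of 17.1 kb away. These 109 peaks (47.6%) lay at an alternative start only. No reference share over all protein-coding start windows is given here, so these shares alone show no preference for later starts. The transcript type at the nearest start was protein-coding for 155 of the 371, a processed transcript for 37 and a retained intron for 33. The midpoint fell in an intron for 189 peaks (50.9%), outside genes for 81 (21.8%), in a coding exon for 30 and in a UTR for 26. Many of the 30 in a coding exon lay in the repeat block on chromosome 9, in exons of predicted genes. At later starts 56.5% of peaks (48.4 to 64.2) held no multi-copy word, against 28.05% (19.5 to 38.6) at first starts. Peaks at first starts include many related copies, such as those at predicted genes of the repeat block on chromosome 9. These copies are not independent, so no difference between the start classes is read from these shares. The midpoint lay in an intron for 74.1% of peaks at later starts and 25.6% at first starts. A later start lies inside its gene by definition, while the window of a first start reaches outside it. The intron shares therefore follow in part from how the classes were defined, and no difference is read from them.

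Heart regulators were represented by few genes. Of 48 cardiac transcription factors and cofactors, 3 had a promoter peak (6.25%, 2.15 to 16.8), which was above the 1.04% of all protein-coding genes but rests on 3 genes. This share and those of the lists below are per gene and take no account of how many starts a gene has. A gene with more starts has more window, so an excess over 1.04% cannot be read as a property of the list. The peaks at all 3 cardiac genes were in single-copy sequence. At Myocd, a coactivator of serum response factor in cardiac and smooth muscle, the peak lay 13 bases downstream of a later annotated start and 64535 bases from the first start of the gene, with its midpoint in a coding exon. At Smyd1, a muscle-restricted lysine methyltransferase, the peak lay 470 bases upstream of an internal start, in an intron, 59482 bases from the first start. Tead1 carried the 2 peaks described above. Gata4, Nkx2-5 and Tbx5 had none. They are among 18 genes taken from the questions of the study, of which 0 had a promoter peak. As only 1.04% of all protein-coding genes had one, 0 of 18 does not set these genes apart. Peaks farther than 1 kb from a start or with a GA or CA repeat were not counted here.

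Of 63 genes of heart signalling and matrix, 3 had a peak (4.76%, 1.63 to 13.1), against 1.04% of all protein-coding genes. The Smad6 peak, at an inhibitor of BMP signalling, lay 130 bases downstream of the start of a processed transcript and 5202 bases from the first start, with 2 CpG in 169 bases. The Vcan peak, at the proteoglycan versican of the cardiac jelly, lay 12 bases downstream of a start and 2124 bases from the first one, with a GC content of 53.7%. The Has2 peak, at the hyaluronan synthase needed for endocardial cushions, lay 863 bases upstream of its first start with a GC content of 29.3%, and 11.9% of its words were multi-copy.

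Of 40 chromatin regulators, 2 had a peak (5%, 1.38 to 16.5), against 1.04% of all protein-coding genes, and both encode parts of SWI/SNF remodelling complexes. The Arid1b peak lay 41 bases upstream of a start in the first kilobase of the gene and was a CpG-island-like peak of 454 bases with 50 CpG and a GC content of 73.3%. The Smarca2 peak lay 139 bases upstream of an internal start, 124810 bases from the first one, with a GC content of 40.7%, and 59.3% of it was soft-masked. Of 51 sarcomere and Z-disc genes, 1 had a peak (1.96%, 0.347 to 10.3), with the 1.04% of all protein-coding genes inside the interval. It was Tpm3, which encodes a tropomyosin. The peak lay 148 bases downstream of a start and 7941 bases from the first start, in single-copy sequence.

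Many fixed groups had no promoter peak at all. These were the ion channels and calcium handling genes (0 of 48, which allows a share of up to 7.41%), the histone chaperones and H3.3 genes (0 of 23, up to 14.3%), the erythroid (0 of 17), endothelial (0 of 14), neural crest (0 of 11) and skeletal muscle genes (0 of 14). The same was true of replication-dependent histones (0 of 70), Hox genes (0 of 39), keratins (0 of 55), proteasome subunits (0 of 54), mitochondrial ribosomal proteins (0 of 75) and hnRNP and SR proteins (0 of 33). The upper limits are Wilson bounds, and all of them include the 1.04% of protein-coding genes. Among larger families, 5 of 1405 olfactory receptors (0.356%, 0.152 to 0.830), 2 of 563 vomeronasal receptors (0.355%), 4 of 490 zinc finger proteins (0.816%), 3 of 351 solute carriers (0.855%) and 1 of 234 ubiquitin ligases (Rnf145, 0.427%) had a peak. Of the cytosolic ribosomal proteins and their relatives 1 of 86 had one (Rpl7l1, 1.16%), and of the translation factors 2 of 79 did (Eif2b4 and Eif3b, 2.53%). Protocadherins contributed 1 of 69 (Pcdh15, 1.45%). The olfactory and vomeronasal lists hold pseudogenes, so the 0.706% of all genes is the closer reference, and both intervals included it. The intervals of the other families included the 1.04% of protein-coding genes. None of these families is thus set apart.

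The 4 zinc finger genes were unlike each other. The Zfp568 peak lay 79 bases upstream of the first start in single-copy CpG-island-like sequence with 25 CpG in 206 bases. The Zfp574 peak lay 345 bases downstream of a start with a GC content of 74.2%. The Zfp367 peak lay 591 bases upstream and was 75.4% soft-masked. The Zfp607a peak lay 860 bases upstream with no CpG and a GC content of 31.0%. Of the 5 olfactory receptor genes, the Olfr328, Olfr757-ps1 and Olfr767 peaks were 100% soft-masked, Olfr1312 was 56.5% masked, and only the Olfr222 peak, 945 bases downstream of a start, held no multi-copy word.

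Among 1186 named microRNA genes, 7 had a promoter peak (0.590%, 0.286 to 1.21), an interval that held the 0.706% of all genes. The Mir22 peak lay 591 bases upstream in single-copy sequence with 7 CpG in 158 bases, Mir22 being abundant in cardiac muscle. The Mir7654 peak lay 395 bases downstream of it and 337 bases downstream of a start of Arglu1, and the Mir5619 peak was also the Nudt9 peak, 32 bases upstream of a Nudt9 start. The Mir3081 peak held no multi-copy word, while the Mir6546 peak held only such words and the Mir7073 peak was 100% soft-masked. Mir101c shared its peak with Gm10715 in the block on chromosome 9.

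Peaks were also ranked by distance to a start of a named protein-coding transcript, and predicted genes such as Gm10718 were left out. The Gm10718 peak shown above lay 40 bases downstream of its start, and most of its words were multi-copy. The 10 nearest peaks at named genes lay within 56 bases of the start. All 10 were in single-copy sequence, which holds for named genes only. Beyond Gabbr1, Vcan, Myocd, Nudt9, Arid1b and Tead1 they were at Camk2a, a kinase of calcium signalling (26 bases upstream), Gzmk, a serine protease of lymphocytes (29 bases upstream), Myl12a, a regulatory light chain of non-muscle myosin (49 bases downstream), and Tmem80 (56 bases upstream). Their composition ranged from a GC content of 45.3% at Myl12a to 77.8% at Tead1. Only at Gzmk was this start the first start of the gene.

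A pair of genes transcribed in opposite directions from 1 shared region is called divergent, and such regions are often CpG islands. Both starts of a divergent protein-coding pair lay within 1 kb of 8 promoter peaks. The peak at Scnm1 and Lysmd1 lay within 134 bases of both starts, held only multi-copy words, and had a GC content of 46.2%, while the 500-base window around it was CpG-island-like. The peak at Trub2 and Coq4, a pseudouridine synthase and a protein of coenzyme Q synthesis, lay within 366 bases of both. The peak at Deaf1 and Tmem80 lay within 384 bases and was CpG-island-like, with 21 CpG in 167 bases. The peaks at Slc5a6 and Atraid and at Wdr62 and Thap8 lay within 498 and 640 bases, with GC contents of 39.0% and 46.2%. Farther out than the 5 nearest pairs, the peak at Grik5 and Zfp574 lay within 645 bases and was not CpG-island-like. The peak at Hs2st1 and Selenof lay within 673 bases and was CpG-island-like, and the one at Ankrd17 and Gm9958 lay within 920 bases.

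More than 1 peak fell on 12 genes, namely Tead1, Utrn, which encodes the dystrophin relative utrophin, and 10 predicted genes. The 2 Utrn peaks lay 983 bases downstream and 228 bases upstream of different starts, in introns, and both held some multi-copy words. The 10 predicted genes belonged to a block of 24 promoter peaks at the start of chromosome 9, chr9:3000342-3038173. The 24 peaks covered 20.0% of these 37.8 kb, and among the genes Gm10717 had 7 peaks and Gm10718, Gm10719, Gm10720 and Gm26870 had 3 each. Their GC content ranged from 32.9% to 36.9%, at least 88.4% of the bases of each were soft-masked, and they lay from 954 bases upstream to 815 bases downstream of a start. Identical 32-base words within the block recurred most often at a spacing of 234 bases (2700 of 30972 neighbouring pairs, 8.72%), then at 702 and 468 bases, which are multiples of the first. Mouse major satellite DNA is known to repeat with this period. Through shared words the 24 formed 1 group with 3 further promoter peaks, at Gm10800 and Gm10801 on chromosome 2 and at Gm21738 on chromosome 14.

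Another local run was rich in GC. On chromosome 4, chr4:88760087-88806199, 12 promoter peaks lay in 46.1 kb at 12 different genes, which include Ifnz, encoding interferon zeta, and the predicted genes Gm13272, Gm13276, Gm13278, Gm13287, Gm13288 and Gm13290. Their median GC content was 66.3% (57.2 to 68.2), 11 were CpG-island-like, and at most 24.0% of any was soft-masked. The midpoints lay from 135 bases upstream to 558 bases downstream of the nearest start, and 52.2% to 100% of the words of each peak were multi-copy. The Gm13289, Gm13272 and Ifnz peaks were each 234 bases wide with 18 CpG and the same GC content of 65.8%. A small run on chromosome 1 held 3 peaks at A030003K21Rik, Gm47955 and Gm6217, at 146 to 215 bases downstream of a start and with 65.9% to 67.4% GC. These runs, and the groups that follow, were picked out after their values were seen.

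Some groups of related genes carried their peaks at the same place in each copy. On chromosome 2, 9 predicted protein-coding genes (Gm14399, Gm14391, Gm4631, Gm4724, Gm6710, Gm2026, Gm14434, Gm14308 and Gm14410) each had a peak from 823 to 878 bases downstream of the start. These peaks had 48.8% to 50.0% GC, at most 12.7% of soft-masked bases and only multi-copy words. On chromosome Y, 5 unprocessed pseudogenes each had a peak 307 to 360 bases downstream of the start, and all 5 were entirely soft-masked. The 4 predicted miRNA genes Gm25911, Gm24270, Gm24187 and Gm23935, each on another chromosome, shared CpG-rich sequence, with GC contents of 61.3% to 70.2% and midpoints from 14 bases upstream to 116 bases downstream of the start. Other groups were spread over many chromosomes and positions. A group of 22 peaks included Mpp7, Clk2, Cyfip2 and Vash1 and ranged from -960 to 820 bases relative to the start, and a group of 15 peaks, all entirely soft-masked, included Nbea, Vav3 and Olfr767.

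The 10 widest promoter peaks mostly lay in repeated sequence. The widest, 856 bases at Gm17535, and those at Gm10722 (584 bases) and Gm10800 (713 bases) were satellite-like in the sense given above. The Mpp7 peak of 835 bases was CpG-rich with 69.6% GC, and 93.3% of its words were multi-copy. The Gm10601, Gm48210, Eif3b and Cpa6 peaks, of 814, 767, 742 and 625 bases, had 88.9% to 97.1% multi-copy words. Only the E130101E03Rik peak (696 bases, 153 bases downstream of a lincRNA start) and the Gm19972 peak (648 bases) were free of them.

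Finally, 12 short promoter motifs were searched on both strands in the central 185 bases of each peak. Many peaks were narrower than that, with a lower quartile of 169 bases. Shares of peaks and tiles may therefore not rest on equal lengths. A match is only a match of letters. The GC box GGGCGG was present in 38 of 371 promoter peaks (10.2%, 7.55 to 13.7), in 7.11% of the tiles and in 1.34% of the other peaks. In single-copy peaks it was present in 26 of 136 (19.1%, 13.4 to 26.5), and within CpG-island-like sequence in 37.7% of peaks (26.6 to 50.3) against 45.6% of tiles. The TATA box TATAAA was present in 7.28% of promoter peaks (5.05 to 10.4), against 12.3% of tiles and 13.2% of other peaks. The CCAAT box was present in 19.7% (15.95 to 24.0), against 23.7% and 32.9%. Promoter peaks were richer in GC than the tiles and part of them shared sequence. No excess or depletion is therefore read from the GC, TATA and CCAAT box shares. For the GC box in single-copy peaks no single-copy tile value is given. Of the cardiac motifs, the NKX2-5 site TNAAGTG was present in 10.8% (8.02 to 14.3) against 9.51% of tiles, the GATA site AGATAA in 8.63% (6.18 to 11.9) against 9.81%, and the TEAD site ACATTCC in 1.62% (0.743 to 3.48) against 2.59%. Over all 371 peaks these intervals included the tile value. Searched over their full length, most peaks of the satellite-like block on chromosome 9 held the NKX2-5 site, with 6 matches in the 856 bases at Gm17535. The 10.8% thus counts copies of 1 repeated sequence many times. In single-copy promoter peaks the NKX2-5 site was present in 6 of 136 (4.41%, 2.04 to 9.29), an interval below the tile value. There the GATA site was present in 13.2% (8.54 to 20.0) and the TEAD site in 2.94% (1.15 to 7.32), intervals that held their tile values. These tile values cover multi-copy tiles too, so they are no like reference for single-copy peaks, and no depletion can be read from them. The YY1 site AAGATGGC was present in 15 promoter peaks (4.04%, 2.47 to 6.56) against 1.50% of tiles and 7.67% of other peaks, and in 0 of the 136 single-copy promoter peaks, which allows a share of up to 2.75%. The E-boxes CAGCTG and CACGTG were present in 10.5% and 2.16%, against 9.11% and 2.32% of tiles, and the ETS site CCGGAAG in 1.89%, against 1.39%. The cAMP response element TGACGTCA and the NRF1 core GCGCATGC were each present in 1 peak.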

How the data were processed

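According to the methods of the study, paired-end reads of the HIRA ChIP and input libraries were aligned to mm10 with Bowtie2, duplicate and poor quality reads were removed, and peaks were called with MACS inside Strand NGS. Per the file headers the p-value cutoff was 0.0010, the fragment length 200 bases and the effective genome size 1870000000. The methods state a stricter cutoff, and the sources do not say which of them applied. The deposited list holds positions only, with no score, so depth is unknown. How reads aligning to several places were treated is not given in the sources used here, and this can change which repeats appear.

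Positions, counted from 1 here, were read against GRCm38.p6 (mm10), its soft-masking and GENCODE M21 (141730 transcripts). RefSeq transcripts of the same assembly were an alternative. Tiles are non-overlapping windows of 185 bases, the median peak width, over all sequence within 1 kb of a start. Features were compared by two-sided Fisher's exact tests on numbers of peaks, with Benjamini-Hochberg adjustment over 14 tests and 0.05 as the threshold. Shares carry 95% Wilson, densities exact Poisson and medians binomial intervals. Measures were tested on simulated sequence. Python 3.11.15, numpy 2.4.6, scipy 1.17.1 and numba 0.67.0 were used.

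Genes named have a start within 1 kb of a peak and are among the genes of the study, a gene list or genes with 2 or more peaks, or belong to the 10 peaks nearest to a named protein-coding start, the 10 widest, the 10 richest in CpG or the 5 nearest to both starts of a divergent pair. Other genes are named as well, such as those at the window edge, at farther divergent pairs or picked after their values were seen. The promoter peaks, gene lists and motifs were chosen with earlier results of these data known. Peaks that share a 32-base word were left out in an alternative added after the data were examined. The input library and reads were not analysed here.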

Additional observations from a re-analysis of the deposited data

How the results depend on the processing

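No paired analysis was possible because there was 1 ChIP library and 1 input library, and no replicate. The excess of GC-rich and of CpG-island-like sequence at promoters over other peaks stayed past the threshold under each setting that changed the set of peaks. The 2 other definitions of CpG-island-like sequence were computed for the promoter peaks alone. The cause of the changes below was not tested, except that settings with fewer peaks or starts give fewer genes.

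With starts within 500 bases there were 216 promoter peaks at 223 genes (127 protein-coding), a median distance of 222.5 bases, a median GC of 51.1% and 22.2% CpG-island-like peaks. With 2 kb there were 599 peaks at 666 genes (363 protein-coding), a median distance of 808 bases, a GC of 48.8% (48.75), 10.9% CpG-island-like, 46.7% mostly masked and 68.8% with a multi-copy word. With protein-coding transcripts only, 189 peaks at 180 genes had a median distance of 486 bases, 27.5% CpG-island-like, 31.2% mostly masked and 54.5% with a multi-copy word. With RefSeq, whose 250 peaks shared 179 with the GENCODE set, these 3 shares were 21.2%, 27.6% and 53.2%. Without the repeat filter 68.3% had a multi-copy word. The wider peaks were 188 at 199 genes (113 protein-coding), 45.2% upstream and 70.7% with a multi-copy word. Peaks with no multi-copy word were 136 at 159 genes (113 protein-coding), with 52.4% GC, 24.3% CpG-island-like and 2.94% mostly masked. Peaks sharing no word with another of the list were 190 at 217 genes (149 protein-coding), with 52.1% GC, 22.1% CpG-island-like, 8.95% mostly masked and 28.4% with a multi-copy word. Over all 371 promoter peaks of the main setting, any masked base was found in 79.5%.

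Against other peaks, in percentage points (promoter minus other), the difference in width was -1.37 with RefSeq, 2.45 after merging, 4.95 without multi-copy words and -1.14 without shared words. For no masked base it was 6.56 without multi-copy words and 3.68 without shared words, for mostly masked -0.125 without multi-copy words, and for only multi-copy words -4.91 without shared words. None of these passed the threshold.

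Against promoter peaks with a repeat, CpG-island-like sequence differed by 9.11 (500 bases), 6.23 (AT and CG repeats out), 9.07 (wider peaks), 7.33 (autosomes), 15.2 (no multi-copy word) and 14.2 (no shared word) points, none past the threshold. Mostly masked differed by 2.36 (500 bases), 2.63 (2 kb), 3.16 (wider) and 2.94 (no multi-copy word), opposite to -1.27 in the report's setting and not past the threshold in any. A GC content of at least 50% differed by 11.1 (2 kb), 10.9 (merged) and 30.5 (no shared word), past the threshold, and by -4.68 with protein-coding transcripts, not past it. Width differed by 11.8 (no multi-copy word) and 10.0 (no shared word), any multi-copy word by -13.7 and only multi-copy words by 7.89 without shared words, none past it. Depth is unknown, so what sequencing limits could not be measured.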
